A study of Mus musculus with 8 samples.

Results

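The genes described here encode 3 Notch receptors (Notch1, Notch2 and Notch3), 4 ligands (Dll1, Dll3, Jag1 and Jag2), the DNA-binding factor of the pathway (Rbpj) and 2 of its target repressors (Hes1 and Hes5). They were chosen by symbol, and all 10 are among the 24346 genes listed in the expression table of Med23+/+ and Med23-/- iOLs. iOLs are immature oligodendrocytes, obtained by inducing purified oligodendrocyte precursor cells (OPCs) to differentiate. The study made them from both genotypes to ask what Med23, a subunit of the Mediator complex that links transcription factors to RNA polymerase II, does for gene expression at this step.

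Notch signalling passes between touching cells. A ligand of the Delta or Jagged family on one cell binds a Notch receptor on its neighbour, the receptor is cleaved, and its released intracellular domain joins RBPJ on DNA and turns on Hes and Hey genes, whose products are transcriptional repressors. In the oligodendrocyte lineage this pathway is known for holding precursors back from differentiation, and Hes5 is one of the repressors through which it does so.

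The OPCs were immunopanned with an antibody against CD140a (PDGFRA) from mouse brains at the end of the first postnatal week and grown with PDGF-AA and NT-3. They were then given 15 nM T3 (the thyroid hormone that drives differentiation) and 10 ng/mL CNTF (a cytokine) for 1 day. Med23-/- cells carry floxed Med23 together with Olig1-Cre, a recombinase made in the oligodendrocyte lineage, and Med23+/+ cells come from control mice. For the mouse experiments the control littermates are given as Med23 fl/fl without Cre. If the same holds for these cultures, Cre is a further difference between the genotypes. Each genotype has 4 libraries, called control (Med23+/+) and mutant (Med23-/-) below and given in the order of replicates 1 to 4. The sample labels and methods do not say whether these are separate cultures or animals. Sex-linked transcripts, given below, set 1 library of each genotype apart, so not all libraries of a genotype came from the same animals. The p-values measure only the spread between these libraries, which may be in part technical.

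Values are FPKM, fragments scaled by transcript length and library size, which corrects for gene length and so allows levels of different genes to be compared. Genotypes were compared on the log2(FPKM + 1) scale with limma over the 12328 genes that averaged 1 FPKM or more, and a gene was called at a Benjamini-Hochberg adjusted p under 0.05. All log2 differences below are Med23-/- minus Med23+/+ on that scale, which understates the change of weakly expressed genes. Read counts were not used here, so depth is unknown, but 1 read was worth 0.745 to 1 times as much in each library as in Med23+/+ replicate 1. Med23 itself ranged from 12.2 to 12.7 FPKM in control and from 7.93 to 8.49 FPKM in mutant libraries (log2 difference -0.55, limma adjusted p = 0.000353). Xist, the RNA of the inactive X chromosome, was at 182 FPKM in Med23+/+ replicate 1 and at 209 FPKM in Med23-/- replicate 2, and at most 0.384 FPKM in the other 6 libraries. Ddx3y, a gene of the Y chromosome, was listed at 0 in those 2 libraries and at 11.5 to 18.9 FPKM in the other 6. One library of each genotype therefore stands apart in sex-linked transcripts, the spread within a genotype includes a difference between cells of female and male animals, and the results are given without each of them where that changes a call.

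Of the 9 Notch genes that passed the level filter, 3 were called higher in Med23-/- iOLs (Dll1, Dll3 and Jag1), where 15.9% of all genes tested were called higher. One, Hes5, was called lower, where 14.1% of all genes were. Dll1 and Dll3 also exceeded a fold change of 2, as did 2.98% of all genes among the higher calls, while 1.75% of all genes were lower by that much and none of the Notch genes was. Hes1 did not pass the filter. The median log2 difference of the 9 genes was 0.18, and that of all genes tested was -0.01. The libraries of the genotypes did not overlap for 3 of the 9 (Dll1, Dll3 and Hes5), a share close to the 31.6% of all genes tested for which this held. In bulk samples, fewer cells of a type and less RNA per cell cannot be told apart, and markers of oligodendrocytes (summed level 662 to 800.2 FPKM in control and 153 to 304 FPKM in mutant libraries) and neurons (239 to 270 and 356 to 444 FPKM) differed as well. So did the sums for neural stem cells (1126 to 1212 and 1314 to 1994 FPKM) and astrocytes (219 to 276 and 111 to 165 FPKM), the latter overlapping without S100b. The part of these cell types in the differences of the Notch genes was not tested.

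**Figure D1:**
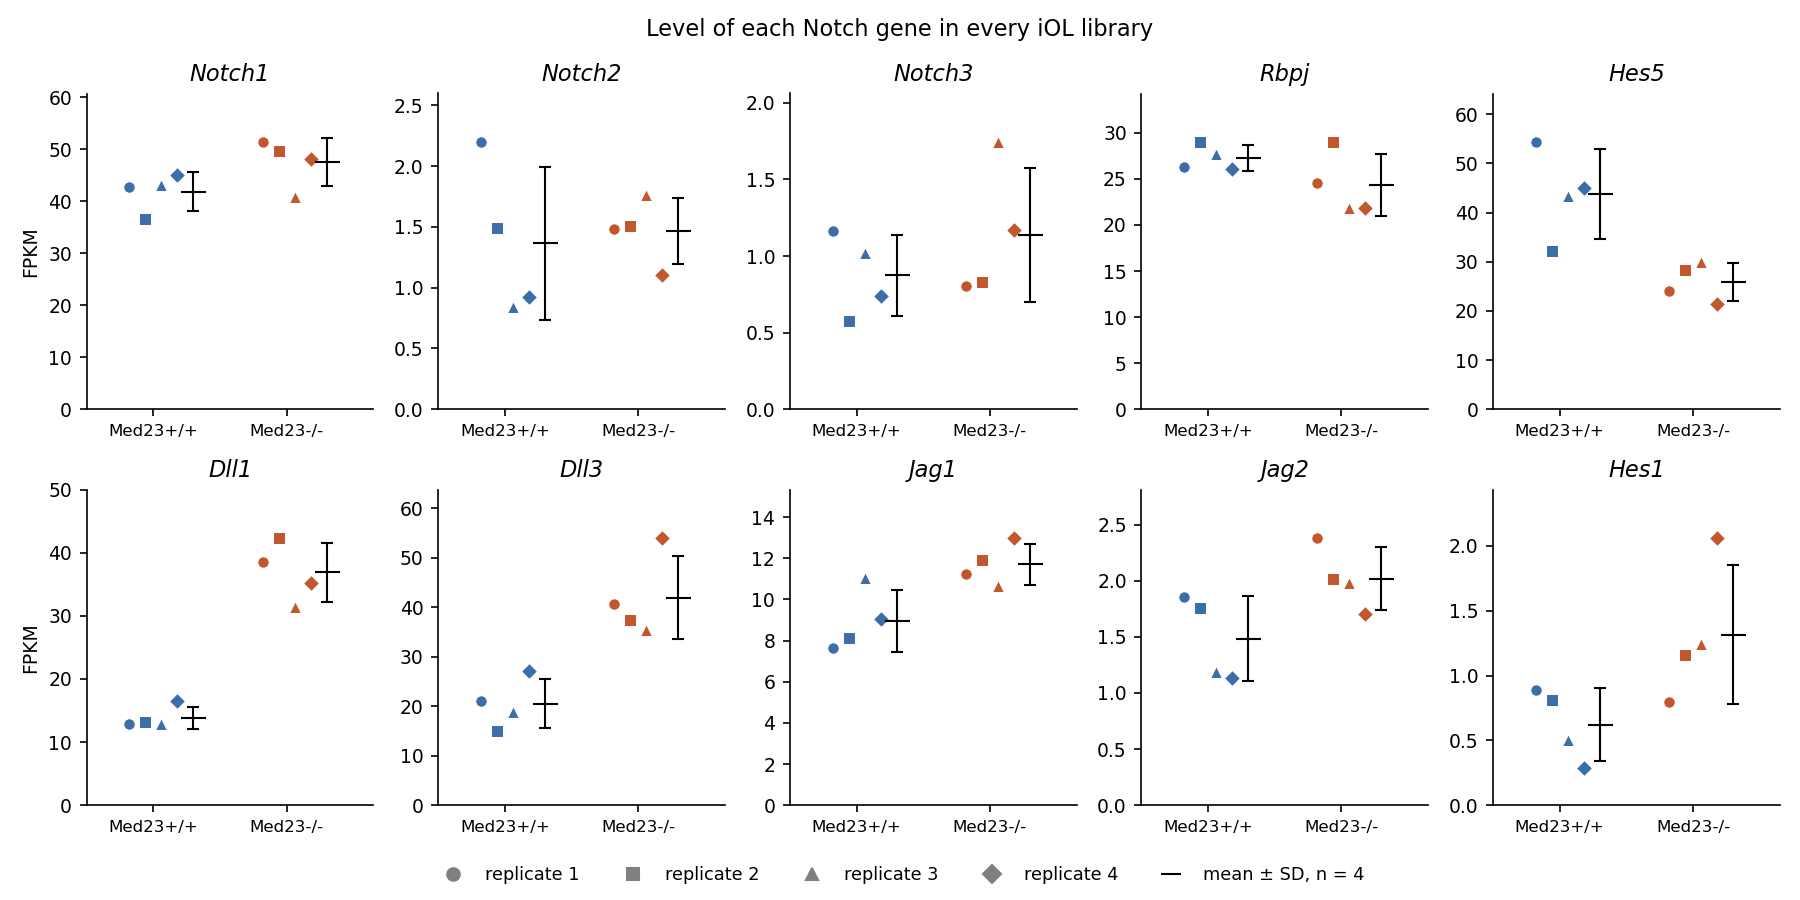
FPKM of each Notch gene (vertical axes, linear and starting at 0, with a scale of its own per gene) in the 4 Med23+/+ libraries (blue) and 4 Med23-/- libraries (orange); marker shapes give the replicate number, and black bars the mean ± SD (n = 4). Dll1 and Dll3 lie higher in every Med23-/- library than in any Med23+/+ library, Hes5 lies lower, and the other genes overlap.

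Dll1, a ligand called higher, and Hes5, a target called lower, stand at opposite ends of the pathway, and the sequence just before their start sites shows what motifs lie there. The strands below are those of the genes, in GRCm38.p6, from the RefSeq start site table. Hes5 (chr4:154960673-154960922, plus strand) is shown for its RBPJ motifs, Hey2 (chr10:30842802-30843033, minus strand, up to its annotated exon) because it is the other repressor of the Hes and Hey family that was called lower, and Dll1 (chr17:15376933-15377182, minus strand) as a ligand that was called higher in every fit. Capitals mark TGGGAA, the core bound by RBPJ, CAGCTG, an E-box that proneural factors can bind, and GGGCGG, a GC box of the kind Sp1 binds, on either strand, so that TTCCCA and CCGCCC are the first and the last of these read on the other strand.
Hes5: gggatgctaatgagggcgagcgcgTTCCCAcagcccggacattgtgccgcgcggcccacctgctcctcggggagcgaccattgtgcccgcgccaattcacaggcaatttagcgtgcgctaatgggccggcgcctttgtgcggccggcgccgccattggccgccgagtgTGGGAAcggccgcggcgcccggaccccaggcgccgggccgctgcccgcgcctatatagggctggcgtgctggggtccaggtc
Hey2: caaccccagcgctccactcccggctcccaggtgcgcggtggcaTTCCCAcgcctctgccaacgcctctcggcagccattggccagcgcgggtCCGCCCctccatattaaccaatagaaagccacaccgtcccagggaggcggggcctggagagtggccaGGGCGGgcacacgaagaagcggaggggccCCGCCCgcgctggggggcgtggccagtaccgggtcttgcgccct
Dll1: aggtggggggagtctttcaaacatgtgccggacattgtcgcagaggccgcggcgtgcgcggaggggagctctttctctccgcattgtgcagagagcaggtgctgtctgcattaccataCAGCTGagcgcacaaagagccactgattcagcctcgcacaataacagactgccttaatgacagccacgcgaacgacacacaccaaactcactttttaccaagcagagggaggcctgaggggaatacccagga

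Over the 250 bases before a start site, TGGGAA occurs on either strand in 21.6% of the 32851 windows of the table, its longer form GTGGGAA, which contains it, in 5.42%, CAGCTG in 13.0% and GGGCGG in 32.7%. The Hes5 window holds TGGGAA at 226 and 82 bases before the start on opposite strands, both within GTGGGAA, and neither CAGCTG nor GGGCGG. Hey2 has 1 GTGGGAA at 207 bases before its start and 3 GC boxes. The windows of both repressors are 71.6% G and C, where the median of all windows is 52.4%.

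Among the ligands, CAGCTG lies 132 bases before the Dll1 start, 7 bases before that of Dll3 and 82 bases before that of Jag1, and Dll3 also has 1 GC box. Notch1, Notch2 and Jag2 have 5 GC boxes each and Notch3 has 4. Rbpj, at the RefSeq start nearest to the beginning of its gene, has TGGGAA at 149 and 65 bases before the start, and none of these genes has another of the motifs searched. Among the members with an entry, the windows that hold CAGCTG are those of the 3 ligands called higher. Other forms of the E-box were not searched, and the windows of Hes5 and Rbpj hold one of them, CACCTG. An RBPJ core lies before Hes5, called lower, and Rbpj, not called. The other genes searched did not all follow the calls. Hey2, called lower, has an RBPJ core, but Hes6, not called, has CAGCTG 171 bases before its start. Nrarp, a Notch target called higher, has neither TGGGAA nor CAGCTG. Such a match describes the letters only. The windows of Notch1, Dll3, Jag2 and Rbpj lie inside the gene coordinates given below, not before them. Of the 10 genes, 9 have an entry, and Hes1 has none. GENCODE exons reach into several windows, so not all of this sequence is upstream of annotated transcripts. Exons of another gene reach into those of Dll1 (A930024N18Rik) and Hes5 (Gm20421). Exons of the gene itself reach into those of Notch1, Notch2, Dll3, Jag1, Jag2, Rbpj and Hey2. Only the first 126 bases of the Jag1 window lie before its exon, and its CAGCTG lies past them. For Rbpj this holds for the first 118 bases, and its TGGGAA at 65 bases before the start lies past them. No bases of the Dll1, Dll3 and Jag2 windows lie before any exon.

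In Med23+/+ iOLs the order by mean FPKM was Hes5 (43.7), Notch1 (41.9), Rbpj (27.3), Dll3 (20.5), Dll1 (13.9), Jag1 (8.97), Jag2 (1.49), Notch2 (1.36), Notch3 (0.873) and Hes1 (0.622). Neighbours in that order overlapped between libraries except at 3 places, where Notch1 lay above Rbpj, Dll1 above Jag1 and Jag1 above Jag2 in every library. In Med23-/- iOLs the order was Notch1 (47.6), Dll3 (41.9), Dll1 (36.9), Hes5 (25.9), Rbpj (24.3), Jag1 (11.7), Jag2 (2.02), Notch2 (1.46), Hes1 (1.31) and Notch3 (1.14). Here the gaps without overlap were those from Dll1 to Hes5, from Rbpj to Jag1 and from Jag1 to Jag2. Hes5 thus stood level with Notch1 at the top in control cells and below both Delta ligands in the mutant cells.

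Receptors carry the signal into the cell, and Notch1 was by far the most abundant of them. Notch1 (chromosome 2, 26457903 to 26516663, minus strand, mm10) had 42.7, 36.6, 43.2 and 45.2 FPKM in Med23+/+ replicates 1 to 4 and 51.5, 49.7, 40.9 and 48.1 FPKM in the Med23-/- replicates. Its means were 41.9 ± 3.71 and 47.6 ± 4.62 FPKM (SD, n = 4 each). Med23-/- replicates 1, 2 and 4 lay above all control libraries and replicate 3 within them. The log2 difference of 0.18 (95% interval -0.04 to 0.39) did not pass the test (limma adjusted p = 0.194), but after quantile normalization it was 0.28 and did (adjusted p = 0.0483, limma).

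Notch2 (chromosome 3, 98013527 to 98150361, plus strand) had 2.20, 1.49, 0.844 and 0.923 FPKM in control and 1.48, 1.51, 1.76 and 1.10 FPKM in mutant libraries. The mutant values lie inside the control range, and Med23+/+ replicates 3 and 4 are the lowest of all. The log2 difference was 0.09 (95% interval -0.33 to 0.51, limma adjusted p = 0.759), and it turned to -0.02 without Med23+/+ replicate 3 and to -0.07 after quantile normalization.

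Notch3 (chromosome 17, 32120820 to 32166852, minus strand) passed the filter narrowly, with a mean of 1.01 FPKM over all libraries. It had 1.16, 0.575, 1.02 and 0.738 FPKM in control and 0.807, 0.834, 1.75 and 1.17 FPKM in mutant libraries, which overlap. Its log2 difference was 0.18 (95% interval -0.21 to 0.57, limma adjusted p = 0.474). The remaining receptor, Notch4, was at a mean of 0.112 FPKM in control and 0.111 FPKM in mutant iOLs. Within a library, Notch1 made up 94.9% ± 1.66 of the summed FPKM of Notch1, Notch2 and Notch3 in control and 94.7% ± 1.74 in mutant cells (SD, n = 4 each).

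Most of these ligands sit on the signalling cell, and among the ligand genes the genotypes stood furthest apart. Dll1 (Delta-like 1, an activating ligand; chromosome 17, 15367354 to 15376872, minus strand) had 12.9, 13.1, 12.9 and 16.5 FPKM in control and 38.6, 42.4, 31.5 and 35.2 FPKM in mutant libraries. The lowest mutant library stood at nearly double the level of the highest control library. The means were 13.9 ± 1.76 and 36.9 ± 4.67 FPKM (SD, n = 4 each), a ratio of 2.66. The log2 difference was 1.35 (SE 0.11, 95% interval 1.10 to 1.60, limma adjusted p = 4.69e-05), and Dll1 was called with a fold change above 2 in each of the 17 other fits tried, at 1.28 to 1.43.

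Dll3 (chromosome 7, 28293553 to 28302238, minus strand) is a Delta-like protein known to act mainly inside the cell that makes it, where it dampens Notch rather than activating a neighbour. It had 21.0, 15.1, 18.9 and 27.1 FPKM in control and 40.6, 37.5, 35.4 and 54.1 FPKM in mutant libraries. The highest value in each genotype was that of replicate 4, and the genotypes did not overlap. The means of 20.5 ± 5.02 and 41.9 ± 8.40 FPKM (SD, n = 4 each) gave a ratio of 2.04 and a log2 difference of 1.01 (SE 0.18, 95% interval 0.61 to 1.40, limma adjusted p = 0.00259). Dll3 was called in each of the 17 other fits, but the fold change fell under 2 (a log2 difference of 1) under median-ratio scaling (0.99) and without Med23+/+ replicate 2 (0.87), Med23+/+ replicate 3 (0.98) or Med23-/- replicate 4 (0.88).

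Jag1 (Jagged1; chromosome 2, 137081456 to 137116644, minus strand) is an activating ligand of the Jagged family. It had 7.64, 8.12, 11.0 and 9.07 FPKM in control and 11.2, 11.9, 10.7 and 13.0 FPKM in mutant libraries. Med23+/+ replicate 3 reached into the mutant range, and the other 3 control libraries lay below all mutant ones. The log2 difference was 0.36 (SE 0.11, 95% interval 0.10 to 0.61, limma adjusted p = 0.0388). This was the least firm of the 4 calls: without any one of Med23+/+ replicates 1, 2 and 4 or Med23-/- replicates 1, 2 and 4 the limma adjusted p rose to between 0.0671 and 0.0966, with all genes above 0 in the fit it was 0.0634, and with the replicate block it was 0.0524.

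Jag2 (chromosome 12, 112907819 to 112929776, minus strand), the other Jagged ligand, was low, at 1.86, 1.76, 1.19 and 1.13 FPKM in control and 2.38, 2.01, 1.98 and 1.70 FPKM in mutant libraries. Med23-/- replicate 4 lay within the control range, and the other 3 mutant libraries above it. The log2 difference of 0.29 (95% interval -0.02 to 0.60) did not pass the test (limma adjusted p = 0.148).

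**Figure D2:**
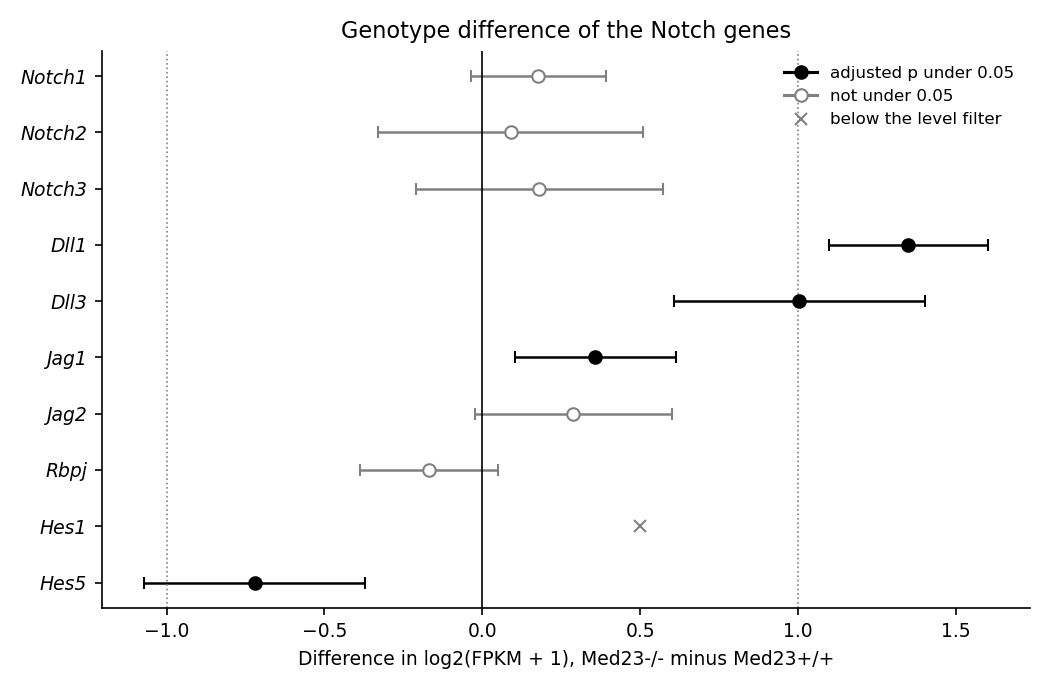
Difference in log2(FPKM + 1), Med23-/- minus Med23+/+ (horizontal axis), for each Notch gene, with its 95% interval from limma (n = 4 libraries each); dotted lines mark a fold change of 2, filled points passed an adjusted p of 0.05, and Hes1, below the level filter, has no interval. Dll1 (1.35), Dll3 (1.01) and Jag1 (0.36) lie to the right and Hes5 (-0.72) to the left, while the intervals of the other tested genes include 0.

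Added up, the 4 ligands came to 44.8 ± 6.55 FPKM per library in Med23+/+ (38.1 to 53.8) and 92.5 ± 10.03 FPKM in Med23-/- iOLs (79.5 to 104). The receptors came to 44.1 ± 3.74 and 50.2 ± 4.05 FPKM (SD, n = 4 each). Dll1 was 31.0% of the ligand sum in Med23+/+ and 40.1% in Med23-/- iOLs, Dll3 45.3% and 45.1%, Jag1 20.2% and 12.7%, and Jag2 3.43% and 2.21%. The ratio of Dll1 to Notch1 within a library was 0.300 to 0.365 in Med23+/+ and 0.731 to 0.854 in Med23-/- iOLs. These sums and shares are descriptions, with no test, and the ligand sum includes Dll3, which is not known as an activating ligand.

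**Figure D3:**
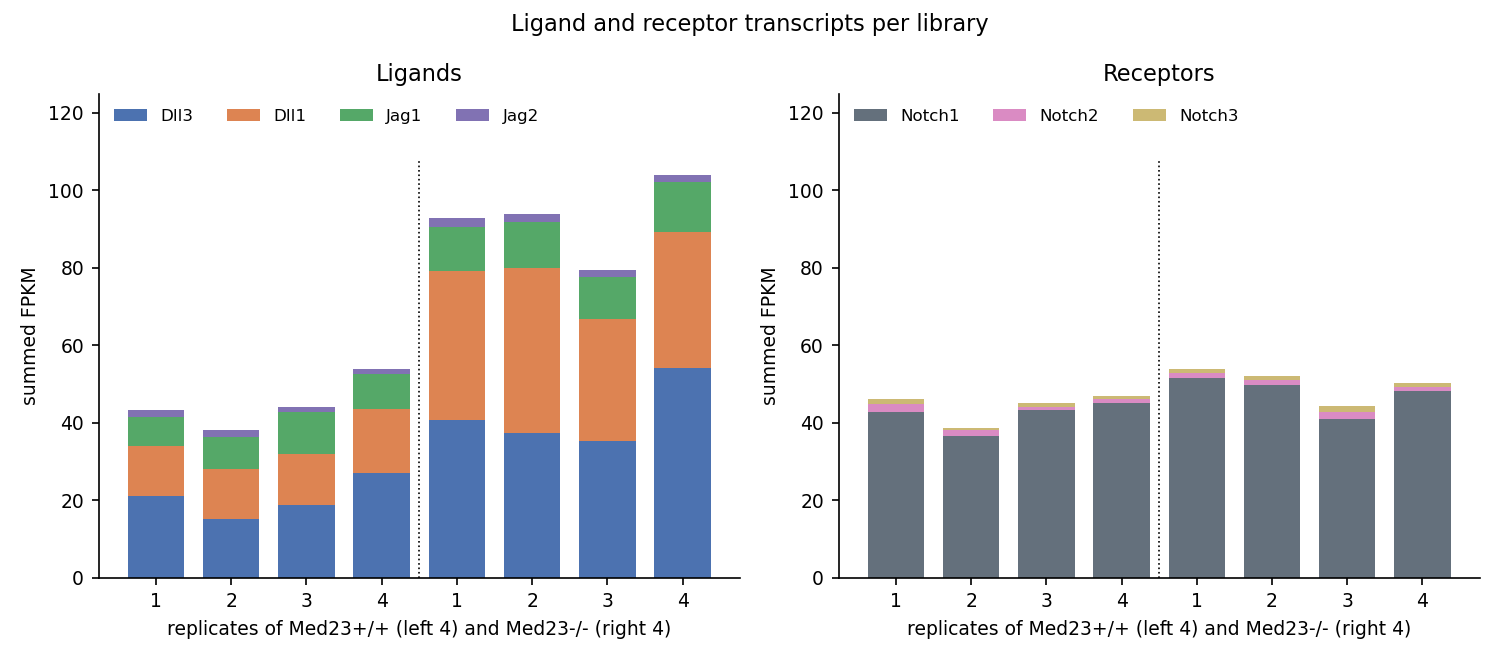
Summed FPKM (vertical axes, linear) of the 4 ligands (left) and 3 receptors (right) in each library, with 1 stacked bar per library and a colour per gene; the 4 Med23+/+ libraries stand left of the dotted line and the 4 Med23-/- libraries right of it. The ligand bars rise from at most 53.8 FPKM to at least 79.5 FPKM, mostly in Dll1 and Dll3, while the receptor bars are nearly all Notch1.

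The genes whose pattern over the 8 libraries lay nearest to that of Dll1, by Euclidean distance between log2 profiles standardized to the same mean and spread, were Gpt2 (distance 0.374), Igsf11 (0.377) and Snapc2 (0.380), where the median distance of all genes tested was 3.82. Gpt2, a mitochondrial alanine aminotransferase, went from 53.4 ± 3.02 to 111.8 ± 4.82 FPKM (SD, n = 4 each). Nearest to Dll3 were Cacng4 (0.452), Kbtbd11 (0.466) and Foxo3 (0.498), where the median was 3.77. Cacng4, an auxiliary subunit of AMPA receptors, had 156 ± 17.98 FPKM in control and 242 ± 24.9 FPKM in mutant iOLs.

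Rbpj (chromosome 5, 53466152 to 53657362, plus strand) encodes the protein that holds Hes genes off without Notch and turns them on with it. It had 26.3, 29.0, 27.7 and 26.1 FPKM in control and 24.6, 29.0, 21.8 and 21.9 FPKM in mutant libraries. Med23-/- replicate 2 lay within the control range and the other 3 mutant libraries below it. The log2 difference of -0.17 (95% interval -0.39 to 0.05) did not pass the test (limma adjusted p = 0.229).

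Hes5 (chromosome 4, 154960923 to 154962371, plus strand), a repressor of proneural and myelin genes that stood level with Notch1 in control cells, moved against the ligands. It had 54.4, 32.2, 43.3 and 45.0 FPKM in control and 24.0, 28.3, 29.8 and 21.5 FPKM in mutant libraries. All mutant libraries lay below all control libraries, by the least between Med23+/+ replicate 2 and Med23-/- replicate 3. The means of 43.7 ± 9.10 and 25.9 ± 3.86 FPKM (SD, n = 4 each) gave a ratio of 0.592 and a log2 difference of -0.72 (SE 0.16, 95% interval -1.07 to -0.37, limma adjusted p = 0.00741). It was called in each of the 17 other fits, at -0.86 to -0.61.

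Hes1 (chromosome 16, 30064384 to 30067796, plus strand), the other classical target, was scarce, at 0.888, 0.812, 0.504 and 0.285 FPKM in control and 0.794, 1.16, 1.24 and 2.06 FPKM in mutant libraries. Med23-/- replicate 1 lay within the control range and the other 3 mutant libraries above it. Its mean over all libraries was 0.968 FPKM, under the level filter. The log2 difference of 0.50 gave p = 0.0857 in a two-sided exact permutation test, which cannot go below 0.0286 with 4 libraries per genotype, and a limma adjusted p of 0.0858 with all genes above 0 in the fit. The FPKM of Hes5 was 39.7 to 158 times that of Hes1 in Med23+/+ libraries and 10.4 to 30.2 times in Med23-/- libraries.

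Within a library, Hes5 was 2.46 to 4.22 times the FPKM of Dll1 in Med23+/+ and 0.611 to 0.948 times in Med23-/- iOLs. Against Hey1, another Notch-regulated repressor, the ratio averaged 2.71 in control and 1.35 in mutant libraries. Against Hes6, a family member known to oppose Hes1, it was 1.37 to 2.09 and 0.856 to 1.19.

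Several of these genes overlap annotated genes on the opposite strand: Hes5 overlaps Gm20421, Dll1 overlaps A930024N18Rik, Notch1 overlaps 0610009E02Rik and Gm13568, Notch3 overlaps Gm17276, and Rbpj overlaps Gm10441 and Gm40304. Whether counting used strand is not given in the sources used here, and without it reads from overlapping genes cannot be told apart.

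Of 68 further genes of the pathway, 55 passed the filter, of which 15 were called higher and 7 lower, where 15.9% and 14.1% of all genes tested were. Of these, 5 were higher with a fold change above 2 (Dner, Cntn6, Neurl1a, Tle1 and Neurod1) and 0 were lower by that much. Among all genes tested, 2.98% and 1.75% were. Neurl1a fell under that fold after quantile normalization (log2 difference 0.96) and without Med23-/- replicate 4 (0.97). Tle1 did so after quantile normalization (0.99) and without Med23+/+ replicate 3 (0.99). The counts by role below stand beside the same shares of all genes. Their median log2 difference was 0.08, where that of all genes tested was -0.01.

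The other ligands showed the same direction as Dll1: all 4 that passed the filter were called higher. Dner, a neuronal transmembrane protein reported as a Notch ligand, had 38.8, 30.7, 27.4 and 32.8 FPKM in control and 87.7, 72.9, 66.7 and 78.7 FPKM in mutant libraries (log2 difference 1.22, SE 0.12, limma adjusted p = 0.000116). Cntn1 and Cntn6 are contactins, cell adhesion molecules described as Notch ligands that favour oligodendrocyte maturation. Cntn1 was the most abundant ligand, at 228 ± 22.1 FPKM in control and 419.5 ± 19.0 FPKM in mutant iOLs (log2 difference 0.88, limma adjusted p = 0.000154), while Cntn6 went from 1.17 ± 0.250 to 3.90 ± 0.551 FPKM (1.17, adjusted p = 0.000217; SD, n = 4 each). Dlk2, an atypical Delta-like protein, had the smallest log2 difference of the 4, 0.78 (limma adjusted p = 0.00570). Dll4 and Dlk1 were below the filter, Dll4 at 0.0449 to 0.176 FPKM in control and 0.273 to 0.640 FPKM in mutant libraries and Dlk1 at means of 0.462 and 0.224 FPKM.

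Few of the genes that modify or cleave the receptor were called. None of the 4 tested genes for receptor glycosylation was called, and their log2 differences ran from -0.13 (Pofut1, which adds fucose to the receptor) to 0.26 (Lfng, a Fringe that extends it). Lfng passed the test without Med23+/+ replicate 1, where it was 0.55 (limma adjusted p = 0.0408). Of 9 genes for receptor cleavage, 2 were called lower and 0 higher. Adam17, a sheddase that can cut Notch, went from 22.7 ± 3.36 to 15.8 ± 1.16 FPKM (log2 difference -0.48, SE 0.11, limma adjusted p = 0.00735), Aph1b, a gamma-secretase subunit, had a log2 difference of -0.43 (limma adjusted p = 0.00413), and Psen2, another subunit, stood highest at 0.27 (limma adjusted p = 0.0574).

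Among 13 genes for endocytosis and turnover of ligands and receptors, 6 were called higher and 1 lower. Neurl1a, a ubiquitin ligase for Notch ligands, rose from 1.44 ± 0.267 to 4.35 ± 1.21 FPKM (log2 difference 1.11, SE 0.16, limma adjusted p = 0.000966). Mib1, the main ubiquitin ligase for ligands, fell from 69.2 ± 2.82 to 57.9 ± 3.42 FPKM (log2 difference -0.25, SE 0.07, limma adjusted p = 0.0236), a call lost after quantile normalization (adjusted p = 0.166) and without any one of Med23+/+ replicates 1, 3 and 4 or Med23-/- replicates 1 and 4 (0.0503 to 0.0635). Nrarp, a Notch target that promotes turnover of the receptor's intracellular domain, had 3.89, 2.46, 4.08 and 4.50 FPKM in control and 5.82, 5.26, 7.27 and 6.30 FPKM in mutant libraries (log2 difference 0.61, SE 0.15, limma adjusted p = 0.0145). Nrarp and Hes5, both transcribed in response to Notch, thus stood in opposite directions.

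Of 8 coactivators of the RBPJ complex, Maml3 (log2 difference 0.54, limma adjusted p = 0.0119) and Maml2 (0.47, adjusted p = 0.0180) were called higher, both being scaffolds of the Mastermind family, and Kat2a, a histone acetyltransferase, lower (-0.35, adjusted p = 0.0138). Of 13 corepressors, 2 were called higher and 2 lower, where 15.9% and 14.1% of all genes tested were. Tle1, a Groucho corepressor that Hes proteins recruit, rose from 4.61 ± 0.712 to 10.6 ± 0.416 FPKM (log2 difference 1.06, SE 0.10, limma adjusted p = 0.000103), and Hdac1, a histone deacetylase, fell from 47.0 ± 7.81 to 33.7 ± 5.40 FPKM (log2 difference -0.47, SE 0.14, limma adjusted p = 0.0319). The Hdac1 call was lost without any one of Med23+/+ replicates 3 and 4 or Med23-/- replicates 1 and 2 (limma adjusted p 0.0782 to 0.0874), after quantile normalization (0.0610) and with all genes above 0 in the fit (0.0511), and that of Maml2 without Med23+/+ replicate 3 (0.0513).

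The other Hes and Hey repressors did not move together. Hey2 had 3.79, 3.53, 4.47 and 5.35 FPKM in control and 2.51, 2.65, 2.23 and 1.36 FPKM in mutant libraries, without overlap (log2 difference -0.74, SE 0.16, limma adjusted p = 0.00804). Hey1 had means of 16.2 ± 2.05 and 19.1 ± 1.30 FPKM and was not called (log2 difference 0.23, limma adjusted p = 0.0978), but it was without Med23+/+ replicate 1 (0.31, adjusted p = 0.0261). Hes6 was not called either (25.1 ± 3.85 and 27.6 ± 3.39 FPKM, log2 difference 0.13, limma adjusted p = 0.446). Hes2, Hes3, Hes7 and Heyl were below the filter.

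Proneural factors are repressed by Hes proteins and can switch on Delta genes. Neurod1 had 5.04, 3.05, 1.999 and 2.79 FPKM in control and 10.5, 5.75, 13.2 and 10.6 FPKM in mutant libraries (log2 difference 1.38, SE 0.25, limma adjusted p = 0.00320). The other 5 proneural factors were below the filter.

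**Figure D4:**
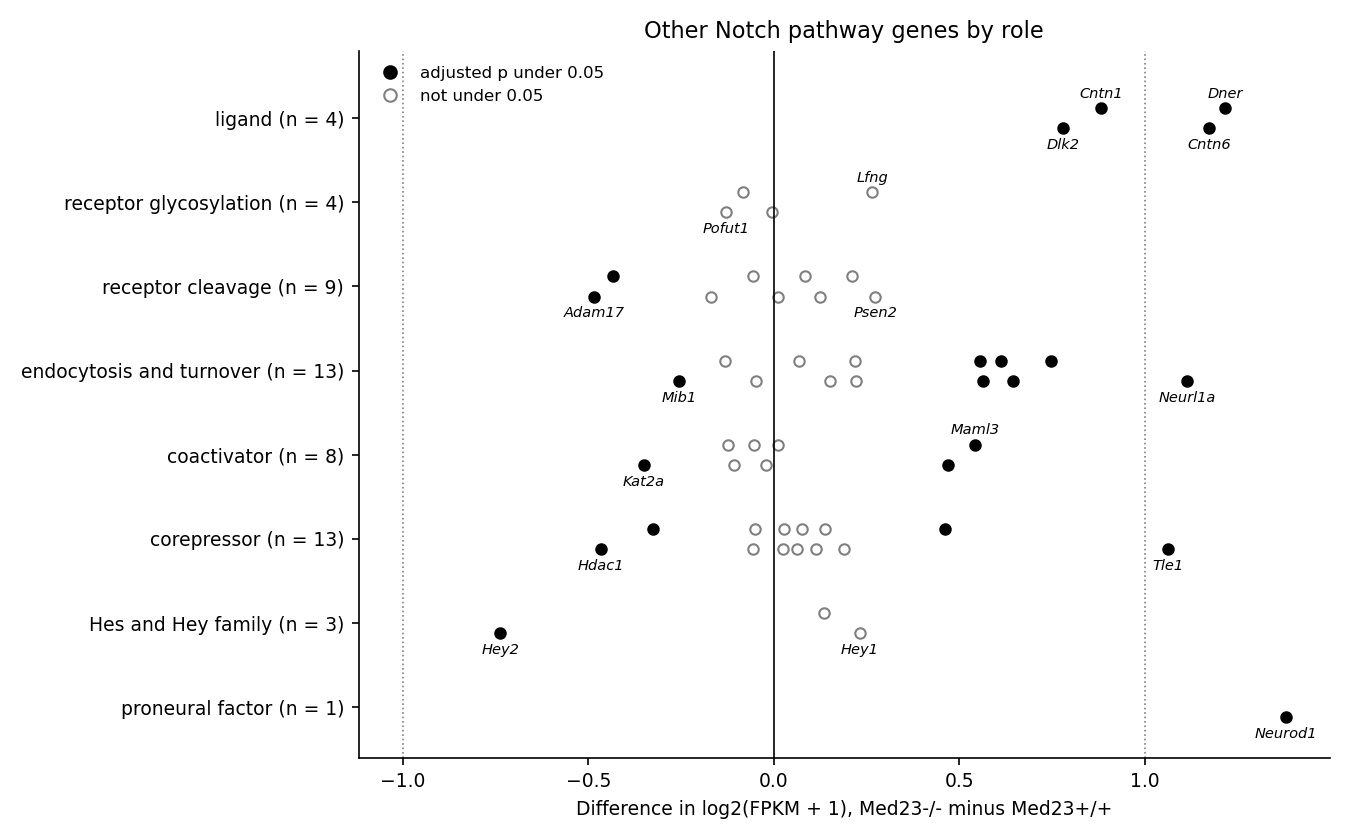
Difference in log2(FPKM + 1), Med23-/- minus Med23+/+ (horizontal axis), of the 55 further Notch pathway genes tested, each a point, by role (vertical axis, with the number of genes); filled points passed an adjusted p of 0.05 and dotted lines mark a fold change of 2. The 4 ligands lie from 0.78 upward, none of the glycosylation genes is filled, and Hey2 (-0.74) and Neurod1 (1.38) mark the ends.

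Markers of several cell types moved with the genotype as well, where 15.9% of all genes tested were called higher and 14.1% lower. Of 7 markers of OPCs, 2 were called higher and 2 lower, with sums of 2229 to 2543 FPKM in control and 2091 to 2592 FPKM in mutant libraries, and Olig1, the most abundant, was not called (log2 difference -0.02, limma adjusted p = 0.951). Pdgfra, the PDGF receptor by which the cells were selected, rose from 121 ± 17.2 to 334 ± 9.59 FPKM (log2 difference 1.47, limma adjusted p = 2.33e-05). Cspg4 was the other marker of OPCs called higher. Those called lower were Gpr17 (698 ± 28.5 to 355 ± 124.5 FPKM, limma adjusted p = 0.00991) and Sox10 (255 ± 23.1 to 183 ± 32.4 FPKM, adjusted p = 0.0203). All 6 tested markers of oligodendrocytes were lower by more than 2-fold, with sums of 662 to 800.2 and 153 to 304 FPKM, among them Mbp, a myelin protein (64.4 ± 10.2 to 13.4 ± 2.88 FPKM, limma adjusted p = 2.89e-05), and Cnp, the most abundant. Of the other markers, Mag had 0.860 ± 0.409 and Mog 0.539 ± 0.0662 FPKM in mutant libraries, and Mobp and Opalin were below 1 FPKM in every library, so 4 of the 8 oligodendrocyte markers were near the floor in the mutant and 2 in the control cells.

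Of 9 neuron markers, 8 were called higher and 0 lower. Their summed FPKM was 265, 270, 251 and 239 in Med23+/+ replicates 1 to 4 and 380, 356, 444 and 432 in the Med23-/- replicates, with Map2 the most abundant (161 ± 12.7 and 202 ± 12.8 FPKM). Of 7 markers of neural stem cells, which use Hes genes to stay undifferentiated, 5 were called higher and 1 lower, with sums of 1126 to 1212 and 1314 to 1994 FPKM (Fabp7, the most abundant, 863 ± 13.9 and 1272 ± 273 FPKM). Of 8 astrocyte markers, 1 was called higher and 3 lower, with sums of 219 to 276 and 111 to 165 FPKM. S100b, the most abundant and found in oligodendrocytes too, fell, with 105.3 to 161 FPKM in control and 9.31 to 23.6 FPKM in mutant libraries (limma adjusted p = 9.17e-05), and without it the sums overlapped, at 107 to 154 and 88.4 to 142 FPKM. Slc1a2, a glutamate transporter, was the one called higher (7.72 to 13.6 and 14.5 to 22.2 FPKM, limma adjusted p = 0.0222), and Slc1a3, Aldoc, Gja1 and Aldh1l1 were not called. Gfap, an intermediate filament of astrocytes, was at 30.0 FPKM in Med23+/+ replicate 1, at 6.56 to 10.8 FPKM in the other control libraries and at 1.23 to 6.40 FPKM in the mutant libraries (log2 difference -1.71, limma adjusted p = 0.0222, and 0.0525 without Med23-/- replicate 1).

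Microglia, endothelial and mural markers were near the floor. None of the 7 microglia markers passed the filter, and their sums were 1.02 to 1.63 FPKM in control and 1.35 to 1.68 FPKM in mutant libraries. Endothelial markers summed to 0.509 to 1.19 and 1.17 to 3.03 FPKM, of which Kdr alone was tested and called higher (log2 difference 0.77, limma adjusted p = 0.0398, and 0.0906 to 0.0916 without any one of Med23+/+ replicates 2 to 4, 0.0802 after quantile normalization and 0.0525 to 0.0605 with all genes above 0, the replicate block or the Xist covariate), while 6 of the 7, Pecam1 and Cdh5 among them, were below 1 FPKM in every library. Mural markers summed to 1.15 to 1.48 and 1.33 to 3.61 FPKM, with 7 of 8 below 1 FPKM in every library and Acta2 not called (limma adjusted p = 0.441).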

How the data were processed

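RNA-seq libraries from 4 Med23+/+ and 4 Med23-/- iOL samples were compared. The authors sequenced on an Illumina X-10, trimmed reads (Cutadapt), mapped them to mm10 (Tophat2) and quantified genes with cuffdiff (options -b and -u), and they deposited FPKM per library. Tool versions, the gene annotation, the normalization between libraries and the strand setting are not given in the sources used here. The table also holds FPKM pooled per genotype and the authors' fold changes and p-values, which were not used.

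Values were transformed to log2(FPKM + 1). Genes averaging 1 FPKM or more were fitted with limma 3.58.1 in R 4.3.3 (lmFit, eBayes with a mean-variance trend), with Benjamini-Hochberg adjustment over all 12328 genes. Hes1, under this filter, was tested by permuting the libraries exactly (two-sided). On simulated data for this comparison (12328 genes) the fit called 56% of genes changed by a log2 difference of 0.5, 94% of those changed by 1, 98% by 1.5 and 100% by 2. In that simulation 200 genes were changed, all averaging 5 FPKM or more, with independent normal noise. In the data 3695 genes were called, and Notch2, Notch3, Jag2 and Hes1 averaged less than 5 FPKM. The percentages therefore need not hold for the data or for these genes.

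The members and lists were chosen with earlier results of these data known. Named are the 10 members, the pathway genes called with a fold change above 2, the highest and lowest gene per role, the 3 nearest profiles of Dll1 and Dll3, Med23, Pdgfra, Mbp, Gfap and the most abundant tested marker per list. Cntn1, Aph1b, Nrarp, Maml2, Hes6, Dll4, Notch4, Xist, Ddx3y, Cspg4, Gpr17, Sox10, Mag, Mog, Slc1a2, Slc1a3, Aldoc, Gja1, Aldh1l1 and the markers below 1 FPKM were named after their values were seen. Alternatives were quantile normalization, a replicate block, a pseudocount of 0.1, a minimum of 5 FPKM or none (genes above 0), no variance trend, median-ratio scaling and leaving out each library. Replicates 1 and 2 against 3 and 4, and Xist-expressing libraries, as covariates were chosen after seeing the data. A gene of the pathway is not reported here and was left out of these counts. Coordinates are from GENCODE vM21, and promoters from RefSeq. Python 3.11.15 (pandas 2.3.3, numpy 2.4.6, matplotlib 3.10.9) made tables and figures.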

Additional observations from a re-analysis of the deposited data

Results flagged for a closer look

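In 6 of 132 groups of 4 libraries (the Notch genes, Med23 and the other pathway genes tested, in each genotype), 1 library stood apart from the other 3 by more than Dixon's 95% limit. Chance does so in about 1 of 20 groups. Among the members this held for Dll1, at 16.5 FPKM in Med23+/+ replicate 4 and 12.9 to 13.1 FPKM in the other control libraries. That library was still below every Med23-/- library. Among the other pathway genes, Dtx4 was at 9.09 FPKM in Med23+/+ replicate 4 (others 6.99 to 7.13). Numbl was at 8.31 FPKM (others 12.4 to 12.9) and Spen at 18.1 FPKM (others 21.9 to 22.4) in Med23+/+ replicate 2. Ncstn was at 33.0 FPKM in Med23-/- replicate 4 (others 31.3 to 31.6), and Itch at 19.5 FPKM in Med23-/- replicate 1 (others 21.8 to 22.0). What set these libraries apart was not tested.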

How the results depend on the processing

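The count of 4 called Notch genes ran from 3 to 5 over 17 other fits, and Dll1, Dll3 and Hes5 were called in each. The count with a fold change above 2, 2 here, was 1 under median-ratio scaling and 1 to 2 without each library in turn, since Dll3 lies at the limit. Notch2 had a log2 difference of -0.066 after quantile normalization. Without each library in turn that of Notch2 ran from -0.018 to 0.25, and it was not called in any of these fits. Jag1 lost its call in 8 fits and Hes1 reached p = 0.0286 in the exact permutation test without Med23-/- replicate 1. The calls of the pathway list ran from 15 to 22, beside 22, and those of all genes from 2781 to 3943, beside 3695. With the replicate block, 3 Notch genes, 22 pathway genes and 3920 genes in all were called, and limma gave an adjusted p of 0.0524 for Jag1 and 0.0605 for Kdr. The replicate numbers were not taken as pairs, since deviations of same-numbered libraries correlated at only -0.0960 to 0.159 and 3 of 8 libraries correlated best with their own number. Notch3 fell under the level filter in some fits, and Notch2, Notch3 and Jag2 in that with a mean of at least 5 FPKM, which gave no value there. Depth is unknown, so values near 1 FPKM, as for Notch2, Notch3, Jag2 and Hes1, carry a counting error that could not be computed. Of 28 other genes named with a log2 difference, 19 kept their call and direction in every fit, 6 lost a call in some, 2 gained one, and Olig1, not called in any, turned to 0.037 after quantile normalization and ran from -0.20 to 0.099 without each library in turn. The causes of these shifts were not tested.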
